A study of Mus musculus with 14 samples.

Results

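Genes of the Wnt pathway were examined in mammary tumors of MMTV-neu mice, in the gland next to such tumors and in wild-type mammary gland. They were chosen by symbol: those that begin with Wnt, Fzd, Sfrp, Dkk, Dvl or Axin followed by a digit, together with Frzb, Lrp5, Lrp6, Ctnnb1, Apc, Lef1 and Tcf7l2. The array carried 40 such genes on 49 probe sets, out of 8252 genes that its annotation names. They were 14 Wnt ligands, 8 Frizzled receptors, 2 co-receptors, 7 secreted inhibitors, 6 cytoplasmic signal proteins and 3 nuclear effectors. The secreted inhibitors were grouped by family (Sfrp and Dkk genes and Frzb), not by a shown effect of each.

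Wnt proteins are secreted, lipid-modified glycoproteins that bind a Frizzled receptor together with the co-receptor Lrp5 or Lrp6. In the canonical branch this halts a cytoplasmic complex of Axin and Apc that otherwise marks beta-catenin (Ctnnb1) for destruction, and beta-catenin then acts in the nucleus with Lef1 and Tcf proteins. Other branches run through planar cell polarity and calcium. In mammary gland, Wnt4 is known as a ligand made downstream of progesterone during side branching, and Wnt1 as a gene next to which mouse mammary tumor virus inserts in mammary tumors.

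Each of 14 arrays measured 1 RNA sample. MMTV-neu mice carry a transgene in which a viral promoter, that of mouse mammary tumor virus, drives neu (erbB2) in mammary epithelium. The groups were 5 tumors of these mice, 2 tumors of a second set of theirs (set B), 4 preneoplastic MMTV-neu glands taken next to a tumor (adjacent gland) and 3 wild-type glands matched for age. The labels give the tumors and adjacent glands no age or strain background. Each wild-type sample was a pool of 5 mice: pool 40 at 31 weeks, with 87.5% FVB and 12.5% CF-1 background, and pools 41 and 42 at 41 weeks, with 97% FVB and 3% CF-1. Nothing in the labels says that tumors or adjacent glands came from separate animals, so each p-value reflects the spread of these samples alone, which may be technical. Wild-type pools average over mice and the other samples are not described as pools.

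The deposited value is an intensity on a linear scale for each probe set, and values under a floor of 101 were set to the floor. All arrays had a trimmed mean close to 1501, and medians ran from 544 to 784, highest in adjacent gland 25. The log2 ratio of the 3 prime to the 5 prime actin control is a measure of RNA quality. It was 0.90 to 1.51 in pools and 0.08 to 0.76 in tumors, without overlap. Adjacent glands had 0.38 to 1.52 and set B tumors 0.14 to 0.21. For Gapdh the ratio was 1.48 in pool 42 and at most 0.43 on every other array. The part of RNA quality in any result was not tested. The arrays came from 5 array lots as the labels number them. Tumors 22, 24 and 26 shared lot 2001815 with adjacent glands 23 and 25. Adjacent glands 49 and 51 shared lot 2004907 with pool 40, and the remaining lots held 1 group each. Tumors and wild-type pools thus never shared a lot as numbered, so lot and group cannot be told apart in full there; a fit with lot as a fixed block reaches that comparison only through the adjacent glands. The lot of tumors 50 and 52 reads 2004097, and a fit that took it and 2004907 as 1 lot was made as well.

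The tissues differed in their cell type markers. Of the white adipocyte markers, 10 of 10 tested were lower in tumors than in wild-type gland (the lipid droplet genes Plin4 and Cidec stayed at the floor in all of them), and their summed intensity was 4385 to 9865 in tumors against 194825 to 274441 in wild-type pools. All 12 fibroblast and matrix markers fell, from a sum of 133012 to 163743 down to 14997 to 40410. So did 7 of 9 endothelial markers, all but Pecam1 and Kdr, with sums of 24718 to 30314 and 6405 to 9181. Of the basal and myoepithelial markers 6 of 7 fell, all but Krt17, with sums of 30235 to 36181 and 4924 to 9073. Of 11 luminal epithelial markers 7 rose and Krt19 fell, with sums of 43985 to 47525 and 73129 to 112655. Of 11 skeletal muscle markers 9 fell and Ckm rose, and of 9 immune markers Csf1r alone fell. In adjacent gland the sums were 92652 to 167569 for adipocyte, 110609 to 196125 for fibroblast, 12292 to 26222 for endothelial, 22559 to 41456 for basal and 50188 to 80872 for luminal markers. In set B tumors they were 5445 to 6258, 17635 to 22761, 5813 to 7574, 7037 to 8536 and 67124 to 91084. Skeletal muscle markers summed to 57119 to 105135 in pools, 2551 to 38667 in adjacent glands, 2425 to 8674 in tumors and 1855 to 2137 in set B, and 4 of 11 were called lower in adjacent gland than in wild-type gland (Atp2a1, Ryr1, Pgam2 and Eno3). In bulk RNA, fewer cells of a type and less RNA per cell cannot be told apart. The part of these differences in any result below was not tested.

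Of the 40 genes, 27 passed a filter that asked for a signal above the 40th percentile of the array on at least 3 arrays. Over the whole array, 6397 of 8252 named genes passed. Receptors and signal proteins passed more often than ligands: 8 of 8 Frizzled genes, 2 of 2 co-receptors, 3 of 3 nuclear effectors and 5 of 6 cytoplasmic genes did, against 4 of 7 secreted inhibitors and 5 of 14 ligands. These shares were not tested. The ligands that passed were Wnt1, Wnt3, Wnt4, Wnt5b and Wnt10a. Above the 40th percentile on every array of a group were 18 genes in wild-type pools, 17 in adjacent glands, 16 in tumors and 21 in set B tumors. Such a count can only fall as a group holds more arrays. The groups held 3, 4, 5 and 2 arrays in that order, so these counts do not compare them. Above it on all 14 arrays were 13 genes: Apc, Axin1, Ctnnb1, Dvl1, Fzd2, Fzd3, Fzd4, Fzd8, Lef1, Lrp6, Sfrp1, Sfrp2 and Tcf7l2.

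Most of the 13 genes that did not pass the filter were dim on all arrays. Wnt7a stayed at or below 78.6, Frzb at or below 107, Wnt11 at or below 115, Wnt8a at or below 151, Dvl3 at or below 166, Dkk1 at or below 189 and Wnt3a at or below 272. Wnt2b reached 351 in tumor 26, Dkk2 391 and Wnt10b 541 in adjacent gland 25, and Wnt7b 424 in tumor 52. Wnt5a and Wnt6 missed the filter by 1 array: Wnt5a, a ligand of the planar polarity and calcium branches, was at 822 in tumor 50 and 574 in set B tumor 81, and Wnt6 was at 476 in pool 40 and 765 in adjacent gland 25. Fzd6 passed on the minimum of 3 arrays, with 658 in tumor 50 and 404 and 766 in set B tumors 80 and 81. A probe set can fail to report its transcript, so a dim signal does not show that the gene is silent.

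Promoter windows of 4 genes on which the results turn are printed because 2 of them encode receptors that moved in opposite directions, Fzd4 and Fzd9, and 2 encode secreted proteins that fell, Sfrp2 and Wnt4. They are the 250 bases before the start site given by RefSeq (GRCm38.p6), on the strand of the gene. Fzd4 lies at chr7:89404116-89404365 (plus strand), Sfrp2 at chr3:83766071-83766320 (plus), Wnt4 at chr4:137277385-137277634 (plus) and Fzd9 at chr5:135251048-135251297 (minus). Capitals mark the GC box GGGCGG on either strand, a letter pattern of Sp family factors, which was chosen after the windows had been seen.
Fzd4: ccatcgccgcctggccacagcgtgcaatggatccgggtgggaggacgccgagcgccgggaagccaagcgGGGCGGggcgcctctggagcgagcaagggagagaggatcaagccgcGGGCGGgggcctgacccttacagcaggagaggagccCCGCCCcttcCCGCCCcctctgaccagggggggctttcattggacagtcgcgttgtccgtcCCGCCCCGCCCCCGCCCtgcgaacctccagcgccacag
Sfrp2: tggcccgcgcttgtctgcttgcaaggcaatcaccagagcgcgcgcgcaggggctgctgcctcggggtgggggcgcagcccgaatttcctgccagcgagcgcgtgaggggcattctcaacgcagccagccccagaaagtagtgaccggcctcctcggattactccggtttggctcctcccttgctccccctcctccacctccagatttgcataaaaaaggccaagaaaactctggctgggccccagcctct
Wnt4: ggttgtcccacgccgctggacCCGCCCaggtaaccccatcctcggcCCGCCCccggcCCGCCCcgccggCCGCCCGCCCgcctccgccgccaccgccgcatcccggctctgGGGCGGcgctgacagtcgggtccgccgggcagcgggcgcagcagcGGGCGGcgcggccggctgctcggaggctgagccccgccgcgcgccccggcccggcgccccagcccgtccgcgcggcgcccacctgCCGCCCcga
Fzd9: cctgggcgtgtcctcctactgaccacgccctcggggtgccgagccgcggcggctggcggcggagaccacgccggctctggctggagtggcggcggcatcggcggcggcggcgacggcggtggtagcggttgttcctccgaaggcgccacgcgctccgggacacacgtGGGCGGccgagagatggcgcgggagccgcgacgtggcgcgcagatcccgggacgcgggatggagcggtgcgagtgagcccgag

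The GC box occurred 7 times in the window of Fzd4, 8 times in that of Wnt4, 1 time in that of Fzd9 and 0 times in that of Sfrp2. Matches could overlap. None of the 4 windows held CTTTGA on either strand, the core letters bound by TCF and LEF proteins. Of the 40 genes, 25 had a window in the table, 33 windows in all. CTTTGA occurred in 6 of the 33 (18.2%) against 13.8% of 32851 windows of the table, and the longer CTTTGAT, a part of the same pattern, in 2 (6.06%) against 3.21%. The GC box occurred in 25 (75.8%) against 32.7%, and the median GC content was 68.0% against 52.4%. A match is a run of letters and not a site, and windows of a gene can overlap.

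The first comparison asked how tumors (n = 5) differ from wild-type gland (n = 3). The secreted inhibitors Sfrp2 and Sfrp4, the Dickkopf family gene Dkk3 and the receptor Fzd4 were lower in tumors. The ligand Wnt4 was not measurable above the floor in any tumor. The receptors Fzd9, Fzd3 and Lrp5 were higher together with beta-catenin and Tcf7l2. Of the 27 genes tested, 5 rose and 5 fell in limma at an adjusted p under 0.05, or 18.5% each way, beside 15.8% and 14.7% of all 6397 genes tested. These shares lie near the background, so the counts say nothing particular about the pathway. The median log2 difference was 0.13 over the 27 genes and 0.13 over all genes. The rises numbered 3 with quantile normalization and 2 each with median centring, with no filter and with lot as a random block, with 5 falls each time. When each wild-type pool was left out in turn, the count fell from 10 to 5 each time. With lot as a fixed block 0 of the 27 were called, beside 4.36% of all genes. With lots 2004097 and 2004907 taken as 1, Fzd4 and Lrp5 were called. On the wild-type side, the differences of both fits with a lot block rest on pool 40 alone.

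**Figure D1:**
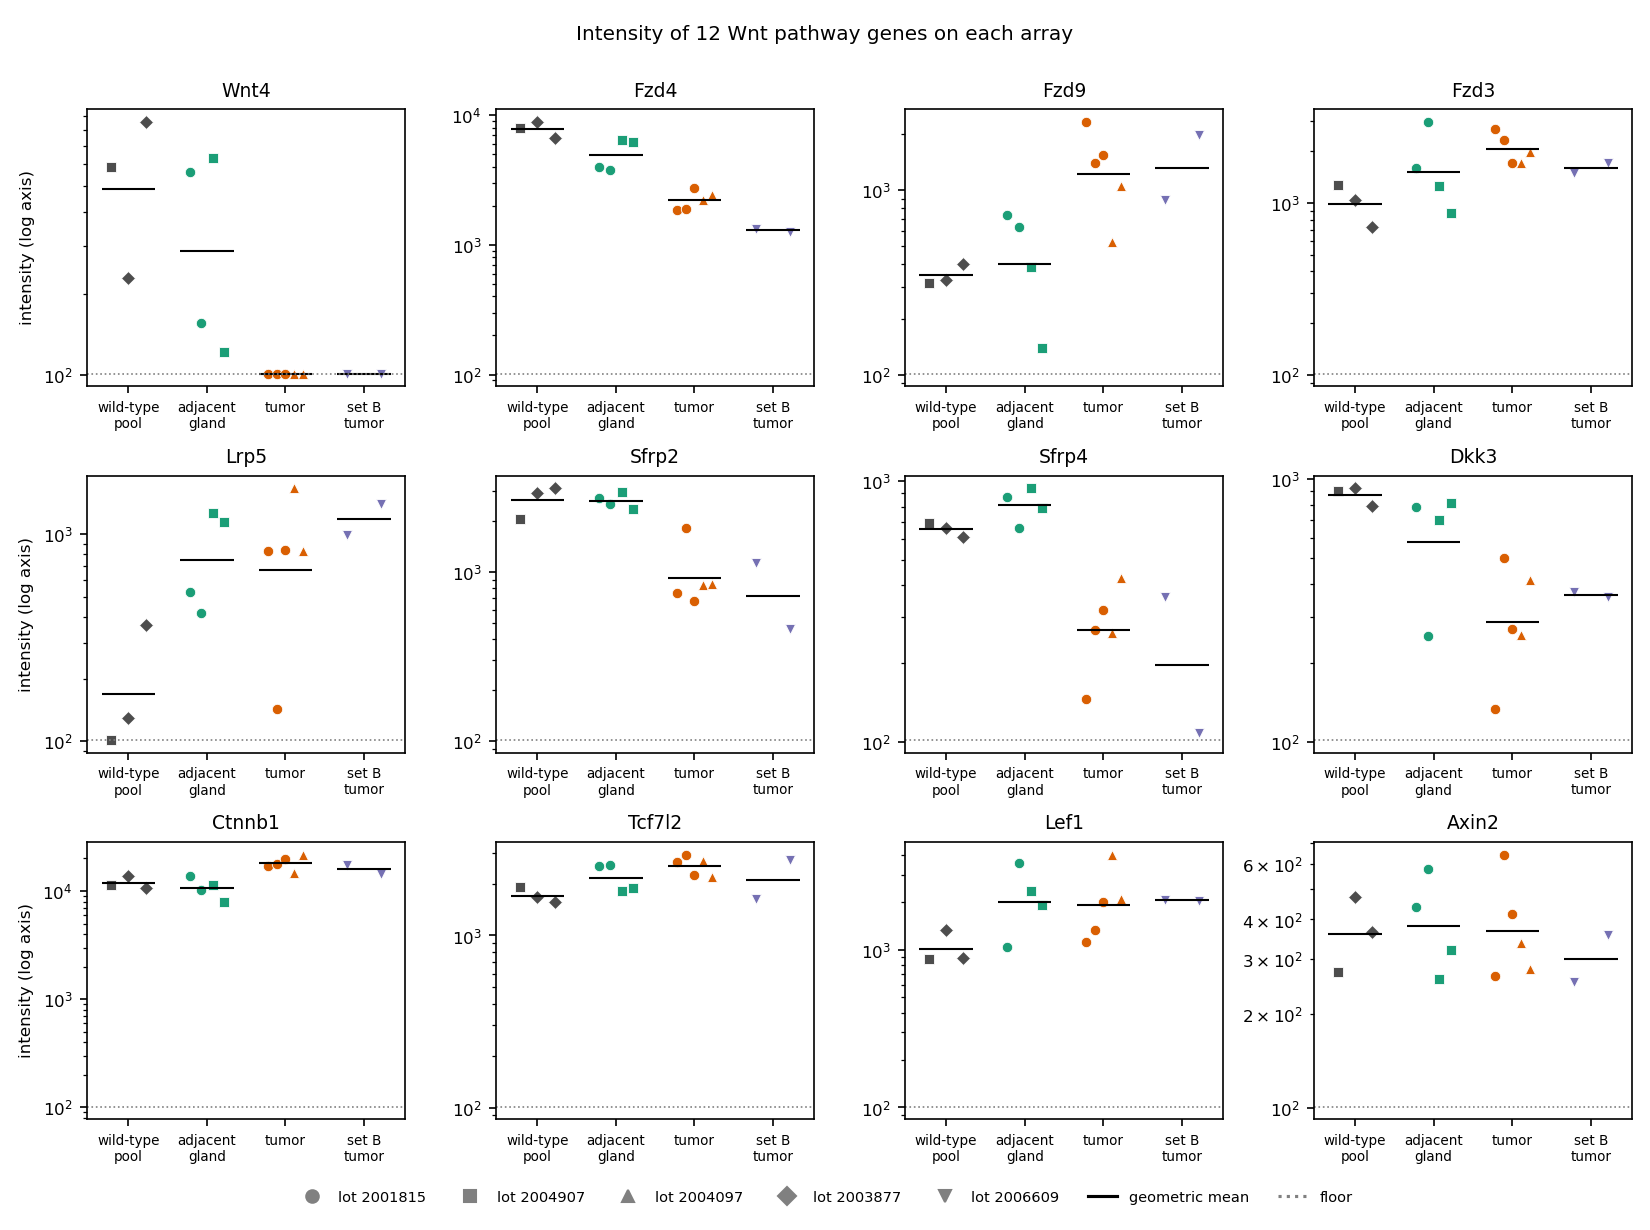
Intensity (log axis, floor dotted) of 12 genes on each array, by group, with the array lot as the symbol and the geometric mean as a bar. Fzd4, Sfrp2, Sfrp4, Dkk3 and Wnt4 are lower on all 7 tumor arrays than on the 3 wild-type pools, while Axin2 overlaps in all 4 groups.

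Among the ligands, Wnt4 fell. Its intensity was 587, 229 and 860 in wild-type pools 40, 41 and 42, and 563, 156, 631 and 122 in adjacent glands 23, 25, 49 and 51. All 5 tumors and both set B tumors were at the floor. No tumor overlapped with any wild-type pool or adjacent gland, and the adjacent glands spread over the range of the pools and below it. Wnt4 was at least 4.80-fold lower in tumors than in wild-type gland, a log2 difference of at least -2.26 ± 0.58 (SE; limma, adjusted p = 0.00813). The call was lost without pool 42 (adjusted p = 0.0639 in limma). Wnt4 passed the filter on 4 arrays, 2 pools and 2 adjacent glands, and on no tumor. It was thus tested only through the groups where it was high, which limits what the p-value can show.

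The other ligands were not called. Wnt1 was 726, 730 and 203 in the wild-type pools and 986, 1302, 794, 788 and 676 in tumors 22, 24, 26, 50 and 52, so that 4 of 5 tumors exceeded every pool (log2 0.89 ± 0.47, adjusted p = 0.164). In set B tumors it was 423 and 475. Wnt3 differed by at least 0.89 ± 0.65 (adjusted p = 0.32). Wnt10a, at 490 to 653 in pools and 380 to 743 in tumors, differed by 0.01 with a 95% interval of -0.71 to 0.73. Wnt5b, a ligand known for the non-canonical branches, was 825 to 1169 in the pools. It was 867 to 1198 in 4 tumors and 139 in tumor 26, and 1159 and 313 in the set B tumors.

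Fzd4 showed the clearest difference among the receptors. It encodes a Frizzled receptor that is known for its role in blood vessels and for binding the ligand Norrin. The probe set with the highest signal (93459_s_at) read 7908, 8872 and 6627 in the wild-type pools, 3991, 3739, 6369 and 6217 in the adjacent glands, 1846, 1893, 2726, 2213 and 2430 in the tumors and 1328 and 1252 in set B. Every tumor lay below every adjacent gland, and every adjacent gland below every pool. The gene was 3.53-fold lower in tumors than in wild-type gland (log2 -1.82 ± 0.21, adjusted p = 1.07e-05). The call held with each of the 14 arrays left out in turn. With lot as a fixed block the difference was -1.20 (adjusted p = 0.0994).

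The other probe sets of Fzd4 were dimmer and moved the same way. On 95771_i_at the pools read 572, 768 and 704, while tumors 22, 24 and 26 were at the floor and tumors 50 and 52 read 205 and 169. On 95772_r_at the pools read 567, 955 and 625, and 4 of 5 tumors were at the floor. Each of these probe sets passed the filter on 5 arrays, pools and adjacent glands only, which limits what their p-values can show. Their log2 differences were -2.39 ± 0.40 and -2.74 ± 0.53 (limma, adjusted p = 3.4e-04 and 0.00107), both lower bounds in size because some tumors were floored. Most endothelial, adipocyte, fibroblast, basal and muscle markers fell in the same comparison, as given above. Their part in the fall of Fzd4 was not tested.

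**Figure D2:**
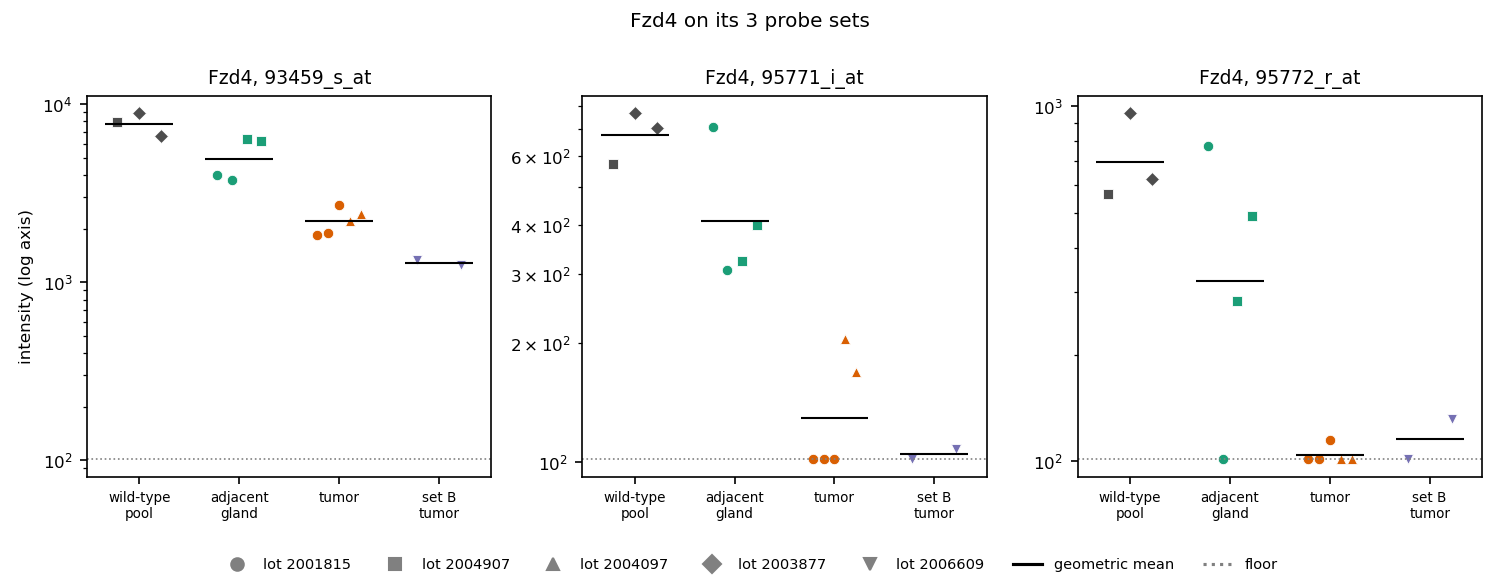
Fzd4 on its 3 probe sets (log axis, floor dotted), by group with the array lot as the symbol and the geometric mean as a bar. All 7 tumors lie below all 3 wild-type pools on each probe set, and adjacent gland 25 is at the floor on 95772_r_at.

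Fzd9 moved in the opposite direction. It was 316, 326 and 399 in the wild-type pools, 735, 632, 385 and 139 in adjacent glands 23, 25, 49 and 51, and 2343, 1403, 1553, 521 and 1048 in tumors 22, 24, 26, 50 and 52. Set B tumors read 880 and 1978. All tumors exceeded all pools, while tumor 50 fell within the range of the adjacent glands. The rise over wild-type gland was 3.56-fold (log2 1.83 ± 0.52, adjusted p = 0.0149 in limma), and 0.89 with lot as a fixed block (adjusted p = 0.676). Without pool 40 or pool 41 the call was lost by a narrow margin (up to an adjusted p of 0.0517), with a log2 difference of 1.60 to 2.14 over the 14 fits that left out 1 array.

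Fzd3, a receptor known for planar polarity and axon guidance, read 1270, 1046 and 723 in the pools and 2678, 2335, 1705, 1706 and 1974 in the tumors. Tumors and pools did not overlap, and the rise was 2.07-fold (log2 1.05 ± 0.32, adjusted p = 0.021 in limma). Adjacent glands 23, 25, 49 and 51 read 1593, 2967, 1253 and 876, so that gland 25 exceeded every tumor. Set B tumors read 1501 and 1713. With lot as a fixed block the difference between tumors and pools was -0.26 ± 0.53 (adjusted p = 0.881), and 0.32 with lots 2004097 and 2004907 taken as 1 (adjusted p = 0.741). The call was lost without pool 41 or pool 42. Its second probe set gave 1.10 ± 0.64 (adjusted p = 0.209).

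Lrp5 rose in tumors, with 1 exception. Its intensity was at the floor, 130 and 364 in pools 40, 41 and 42, and 835, 143, 843, 1672 and 829 in tumors 22, 24, 26, 50 and 52. Set B tumors read 997 and 1404. Tumor 24 lay among the pools, and 6 of 7 tumors exceeded every pool. The rise was at least 4.0-fold (log2 at least 2.0 ± 0.65, adjusted p = 0.029 in limma) and at least 3.56 with lot as a fixed block (adjusted p = 0.123). The call was lost without pool 40, pool 41 or any 1 of tumors 22, 26, 50 and 52 (up to an adjusted p of 0.128 in limma). Lrp5 passed the filter on 9 arrays, none of them a pool, so it was tested only through the groups where it was high. Without tumor 24 and adjacent gland 25, a choice made after seeing the data, the difference was at least 2.56 (adjusted p = 5.55e-04 in limma). Tumor 24 was the tumor that did not rise, so the smaller p-value is no added support. Lrp6 differed by 0.13, with a 95% interval of -0.32 to 0.58. A second probe set of Lrp6 (103271_at) did not pass the filter and was not tested. It read 109 to 136 in the pools, 156 to 408 in the tumors and 127 and 1233 in set B tumors 80 and 81.

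The other Frizzled genes were not called. Fzd2 was 699, 726 and 766 in the pools and 866 to 1532 in the tumors without overlap (log2 0.55 ± 0.26, adjusted p = 0.124). Fzd6 ran from 96.0 to 658 over the tumors. Fzd1, Fzd7 and Fzd8 had log2 differences of 0.01, 0.03 and 0.23, and their 95% intervals ran from -1.23 to 1.25, -0.70 to 0.76 and -0.52 to 0.98.

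Of the 4 genes tested that are grouped here as secreted inhibitors, 3 fell, beside 14.7% of all genes tested. A share of so few genes was not tested and is not read as particular. Dkk1, Dkk2 and Frzb of this group did not pass the filter. Sfrp2 encodes a secreted Frizzled-related protein, which binds Wnt ligands outside the cell. It read 2068, 2954 and 3139 in the pools, 2732, 2538, 2965 and 2369 in the adjacent glands, 752, 1822, 679, 842 and 853 in tumors 22, 24, 26, 50 and 52, and 1135 and 461 in set B. All tumors lay below all other samples, and tumor 24 was the highest of them. Sfrp2 was 2.90-fold lower in tumors than in wild-type gland (log2 -1.54 ± 0.32, adjusted p = 0.00198 in limma), and -1.07 with lot as a fixed block (adjusted p = 0.524).

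Sfrp4, of the same family, read 690, 660 and 613 in the pools, 867, 662, 942 and 789 in the adjacent glands, 146, 269, 321, 261 and 425 in the tumors and 359 and 108 in set B. No tumor overlapped with any other sample. The fall was 2.43-fold (log2 -1.28 ± 0.40, adjusted p = 0.0235 in limma), and -1.38 with lot as a fixed block (adjusted p = 0.485). The call was lost without any 1 of the pools and without tumor 22.

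Dkk3, which encodes a secreted protein of the Dickkopf family, read 906, 926 and 789 in the pools and 133, 503, 270, 254 and 414 in the tumors. The adjacent glands read 784, 252, 699 and 810, so gland 25 lay among the tumors. Set B tumors read 371 and 356. Dkk3 was 3.05-fold lower in tumors than in wild-type gland (log2 -1.61 ± 0.44, adjusted p = 0.0123 in limma), and -1.03 with lot as a fixed block (adjusted p = 0.673). Sfrp2 and Dkk3 kept the call with each array left out in turn. Most fibroblast, adipocyte, endothelial, basal and muscle markers fell in the same comparison, as given above. Their part in the fall of these 3 genes was not tested.

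Sfrp1 had the opposite sign and was not called. It was 524, 397 and 715 in the pools and 1209, 2091, 698, 722 and 702 in tumors 22, 24, 26, 50 and 52. Tumors 26 and 52 lay below pool 42. The log2 difference was 0.88 ± 0.38 (adjusted p = 0.0905).

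Of the nuclear effectors, Ctnnb1 and Tcf7l2 rose, beside 15.8% of all genes tested, a share likewise not tested. Ctnnb1 encodes beta-catenin, the central signal protein of the pathway. It read 11306, 13748 and 10579 in the pools, 13691, 10208, 11445 and 7948 in the adjacent glands, 17108, 17697, 19630, 14612 and 21776 in the tumors and 17566 and 14380 in set B. All 7 tumors exceeded all 7 other samples. The rise over wild-type gland was 1.53-fold (log2 0.61 ± 0.19, adjusted p = 0.0258 in limma), and 0.37 with lot as a fixed block (adjusted p = 0.744). The call was lost with the arrays centred on their medians (adjusted p = 0.0645) and without pool 40, pool 42, tumor 26 or tumor 52. The array does not measure the amount or place of the protein.

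No cytoplasmic gene was called, of 5 tested, beside 15.8% of all genes higher and 14.7% lower. Axin2, a scaffold of the destruction complex that canonical signalling itself is known to induce, read 273, 470 and 366 in the pools, 440, 581, 259 and 319 in the adjacent glands, 265, 644, 418, 338 and 278 in the tumors and 252 and 357 in set B. All 4 groups overlapped. The log2 difference between tumors and wild-type gland was 0.03 with a 95% interval of -0.79 to 0.84, wide enough to hold a change of over 1.5-fold either way. Axin1, Apc, Dvl1 and Dvl2 differed by 0.31, 0.08, -0.30 and 0.00, with adjusted p-values from 0.257 to 0.996.

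Tcf7l2, a TCF protein that binds DNA with beta-catenin, read 1901, 1665 and 1568 in the pools and 2672, 2956, 2242, 2704 and 2177 in the tumors, without overlap. Adjacent glands 23, 25, 49 and 51 read 2526, 2569, 1811 and 1886. Set B tumors 80 and 81 read 1620 and 2756, so that tumor 80 lay among the pools. The rise in tumors over wild-type gland was 1.48-fold (log2 0.57 ± 0.21, adjusted p = 0.0498 in limma), close to the threshold. It was -0.0073 ± 0.41 with lot as a fixed block (adjusted p = 0.996), and 0.25 with lots 2004097 and 2004907 taken as 1 (adjusted p = 0.705). The call was lost in 10 of 14 fits that left out 1 array (all but those without gland 25, tumor 52 or a set B tumor), up to an adjusted p of 0.161. Its second probe set gave -0.23 ± 0.36 (adjusted p = 0.655).

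Lef1 read 874, 1329 and 882 in the pools, 1036, 3551, 2371 and 1913 in adjacent glands 23, 25, 49 and 51, and 1121, 1336, 2014, 4019 and 2094 in the tumors. Set B tumors read 2078 and 2043. The highest values came from tumor 50 and gland 25, and tumor 22 and gland 23 lay among the pools. Lef1 was not called in any comparison (tumors against wild-type gland, log2 0.92 ± 0.39, adjusted p = 0.0903).

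**Figure D3:**
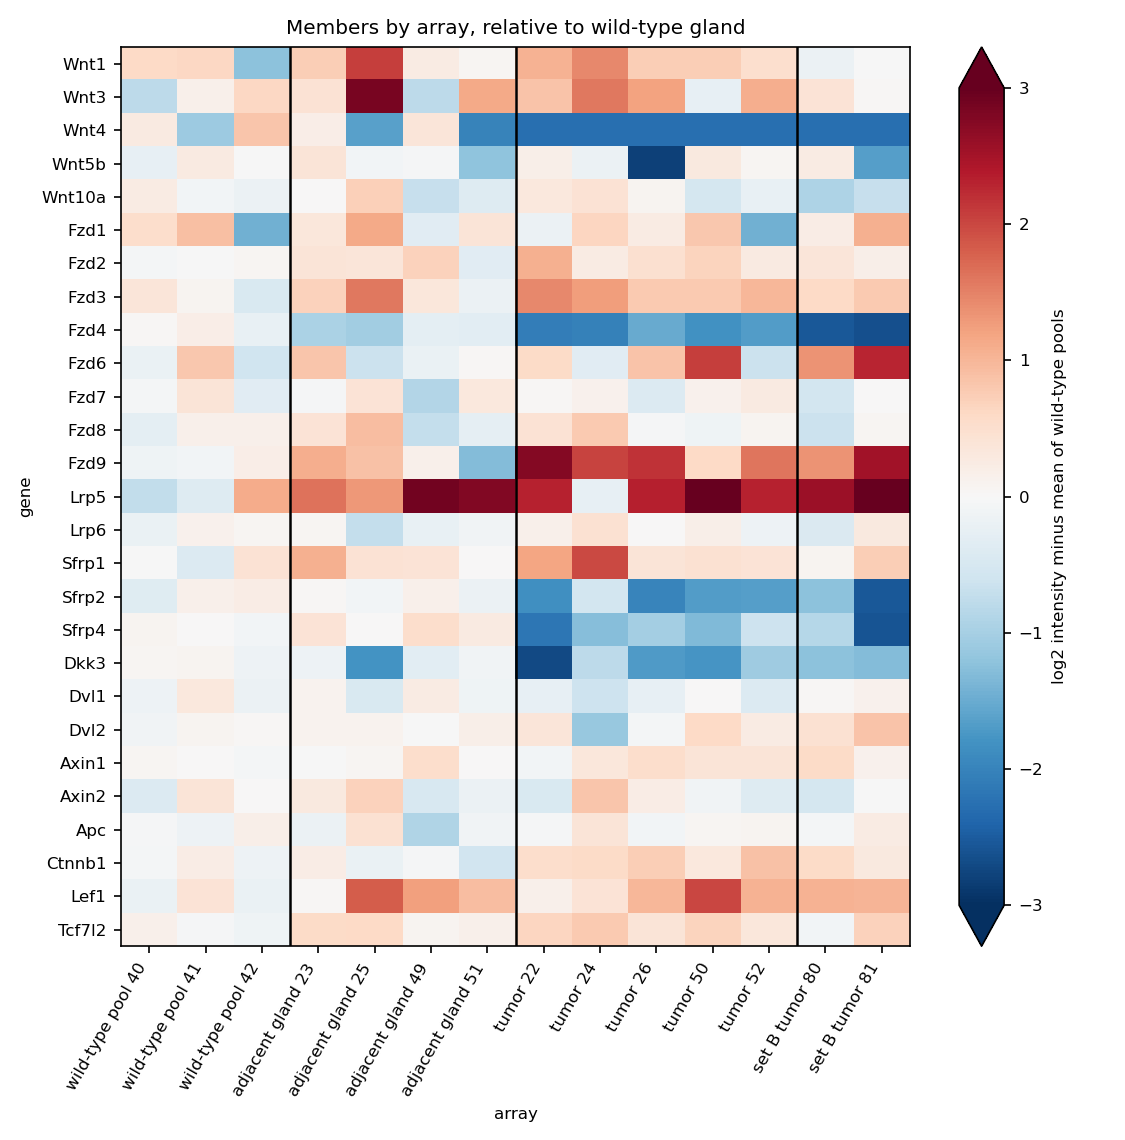
Log2 intensity of the 27 genes that passed the filter on the 14 arrays, minus the mean of the 3 wild-type pools (red higher, blue lower, colors saturate at 3). Wnt4, Fzd4, Sfrp2, Sfrp4 and Dkk3 are blue on all 7 tumor arrays, and the columns of adjacent gland 25 and tumor 24 are red for Wnt1, Wnt3, Fzd3 and Fzd8.

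The second comparison asked what already differs in the preneoplastic gland next to tumors (n = 4) against wild-type gland. No Wnt pathway gene was called in limma, beside 0.782% of all genes higher and 0.469% lower. Without adjustment 3 of the 27 genes had p under 0.05, Lrp5, Fzd4 and Lef1, beside 975 of all 6397, a smaller share than over all genes. Median log2 differences were 0.09 over the 27 genes and 0.05 over all genes.

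Lrp5 was 526, 417, 1261 and 1153 in adjacent glands 23, 25, 49 and 51, all above the 3 pools (log2 at least 2.16 ± 0.68, adjusted p = 0.135). With tumor 24 left out of the fit, Lrp5 was called. With gland 25 left out as well, the difference was at least 2.44 (adjusted p = 0.02 in limma). That joint omission was chosen after the data were seen. Fzd4 was lower in all 4 glands than in all pools (log2 -0.65 ± 0.22, adjusted p = 0.176). Lef1 differed by 1.0 ± 0.41 (adjusted p = 0.269), and overlapped. Wnt4 differed by -0.76 ± 0.61 (adjusted p = 0.584).

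The adjacent glands differed among themselves along the array lots. In glands 23 and 25 of lot 2001815, Fzd9 had a geometric mean of 682 against 232 in glands 49 and 51 of lot 2004907. Wnt1 stood at 1260 against 528, Wnt3 at 540 against 196, Fzd8 at 1138 against 508, Fzd3 at 2174 against 1047 and Lrp5 at 468 against 1206. For Wnt3 the lots overlapped: glands 23 and 25 read 233 and 1249, and gland 51 read 380. Of the 27 genes, 5 were higher by at least 1 on the log2 scale in lot 2001815 (18.5%) and 1 lower (3.7%), beside 9.38% and 5.03% of all genes. With 2 glands a lot, this has no test, and lot and animal cannot be told apart.

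The third comparison set the first tumors against adjacent gland, both from MMTV-neu mice. Of the 27 genes, 2 rose and 3 fell in limma, 7.41% and 11.1%, beside 5.75% and 9.29% of all genes. Fzd4 was lower by 1.17 ± 0.19 (adjusted p = 6.48e-04), Sfrp2 by 1.52 ± 0.30 (adjusted p = 0.00229) and Sfrp4 by 1.59 ± 0.37 (adjusted p = 0.00735) on the log2 scale. Ctnnb1 was higher by 0.76 ± 0.18 (adjusted p = 0.00779) and Fzd9 by 1.63 ± 0.48 (adjusted p = 0.0316). Groups did not overlap for the first 4 of these genes and overlapped for Fzd9 through tumor 50. The first 4 kept the call with each array left out in turn, while that of Fzd9 was lost without gland 49, gland 51 or any 1 of tumors 22, 24 and 26 (up to an adjusted p of 0.116).

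Fzd4 kept its call with lot as a fixed block (log2 -0.87, adjusted p = 0.0333), beside 7.02% of all genes called in that fit, and the other 4 genes did not. Among the 3 tumors and 2 adjacent glands of lot 2001815 alone, Fzd4 differed by -0.87, Sfrp2 by -1.43, Sfrp4 by -1.70, Ctnnb1 by 0.62 and Fzd9 by 1.34, and none was called. These are the same differences as under the block, because tumors and adjacent glands share only that lot as numbered. The 2 fits differ in their estimate of the spread and are not separate evidence. Wnt4 was at the floor in all tumors and above it in all 4 glands (log2 at least -1.50 ± 0.54, adjusted p = 0.0761). Lrp5 differed by -0.16, with a 95% interval of -1.42 to 1.11.

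**Figure D4:**
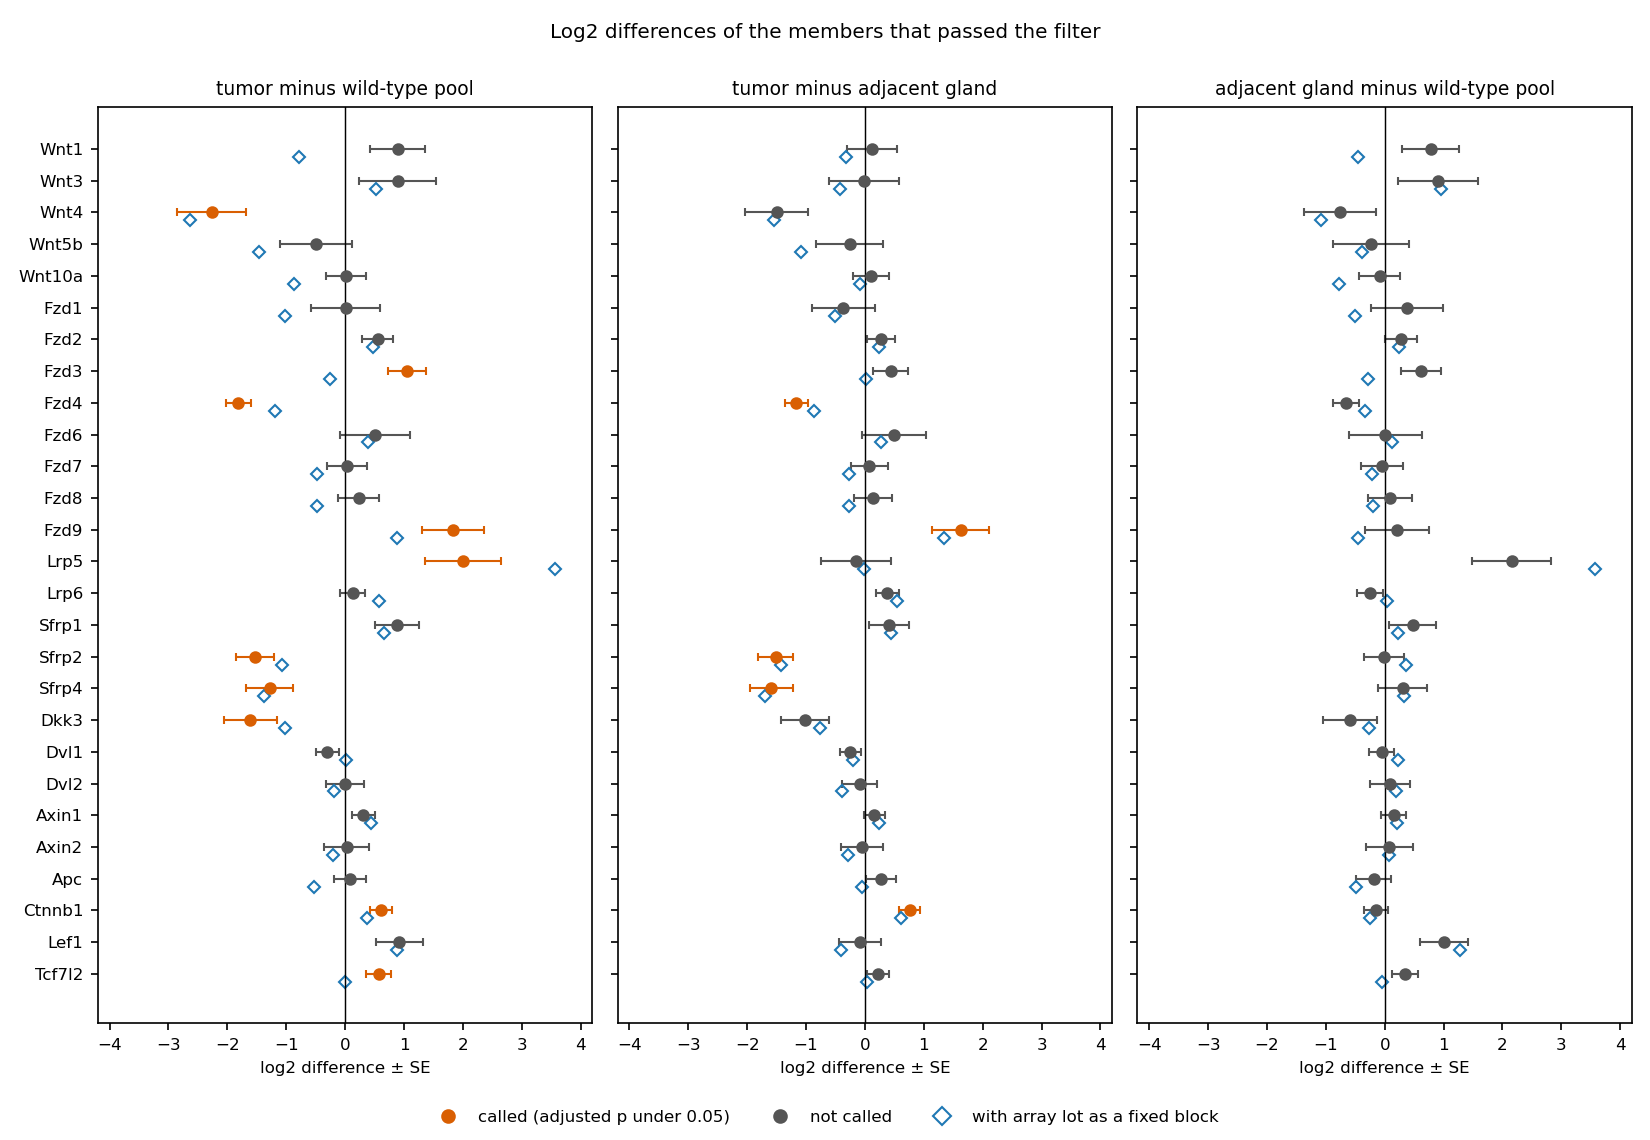
Log2 differences ± SE of the 27 genes in tumors minus wild-type pools, tumors minus adjacent glands and adjacent glands minus wild-type pools (orange, called; grey, not called), with the value under lot as a fixed block as an open diamond. Fzd3 and Tcf7l2 are above 0 in the first panel and at or below 0 with the block.

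Set B tumors (n = 2) were used to see whether changes of the first tumors recur. Against wild-type gland 2 genes rose and 4 fell, 7.41% and 14.8%, beside 11.3% and 12.4% of all genes. They were Fzd4 (log2 -2.59 ± 0.27, adjusted p = 5.57e-06), Sfrp2 (-1.89 ± 0.40, adjusted p = 0.00323), Sfrp4 (-1.73 ± 0.50, adjusted p = 0.0195), Wnt4 (at least -2.26 ± 0.73, adjusted p = 0.034), Lrp5 (at least 2.81 ± 0.81, adjusted p = 0.0195) and Fzd9 (1.94 ± 0.65, adjusted p = 0.0423). These comparisons share the wild-type pools with those of the first tumors. Wnt4 passed the filter on no tumor and Lrp5 on no pool, so each was tested only through groups where it was high. Without set B tumor 81 the count fell to 1, without tumor 80 to 3 and without pool 40 to 2. Fzd4 was the only one of the 6 that kept the call with each of the 14 arrays left out in turn.

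Against adjacent gland, Fzd4 (log2 -1.93 ± 0.25), Sfrp2 (-1.87 ± 0.38) and Sfrp4 (-2.04 ± 0.47) were lower in set B, 3 of 27 beside 8.58% of all genes. None was higher, beside 5.89%. Without set B tumor 81 this count fell to 1. Set B against the first tumors gave no call among 8616 probe sets in limma (932 at p under 0.05). Of the 27 genes 1 had p under 0.05: Fzd4, lower in both set B tumors than in all 5 first tumors (log2 -0.77 ± 0.24, adjusted p = 0.348).

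Tumors varied among themselves in several genes. Over the first 5 tumors the log2 range was 3.55 for Lrp5, 3.10 for Wnt5b, 2.70 for Fzd6, 2.23 for Fzd1 and 2.17 for Fzd9, while it was 0.44 for Tcf7l2, 0.48 for Apc, 0.56 for Fzd4 and 0.58 for Ctnnb1. Tumor 50 was the highest of the first tumors for Lrp5, Lef1 and Fzd6, and the lowest for Fzd9.

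The wider pathway was described with 6 lists that hold 181 genes, of which 102 were tested. In tumors against wild-type gland, each list is set beside the 15.8% of all genes that rose and the 14.7% that fell, and no list is read as particular. Within the list of agonists and secretion machinery, the largest difference was that of Rspo1, an R-spondin known to strengthen Wnt signals at the receptor. Rspo1 read 1486, 1490 and 1512 in the pools, 1521, 1938, 1651 and 360 in adjacent glands 23, 25, 49 and 51, and stayed at the floor in each of the 7 tumors. The groups were fully apart, and gland 51 was the lowest of the non-tumor samples. Rspo1 was at least 14.8-fold lower in tumors than in wild-type gland (log2 at least -3.88 ± 0.44, adjusted p = 8.68e-06 in limma), and the call held with lot as a fixed block (adjusted p = 0.00604).

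Of 7 genes in that list 0 rose and 2 fell (28.6%), the other being Gpc1, a glypican (log2 -1.0 ± 0.26), with an adjusted p of 0.0915 under the block. In tumors against adjacent gland, Gpc1 was called in limma with the block (log2 -1.24, adjusted p = 0.03). Of 5 other receptors and inhibitors 1 rose and 1 fell (20% each). Ptk7, a co-receptor known for planar polarity, read 216, 392 and at the floor in the pools and 1036 to 1561 in the tumors (log2 at least 2.59 ± 0.36, adjusted p = 5.85e-05). It was also higher in adjacent gland, at 627 to 1271 (log2 at least 2.24 ± 0.38, adjusted p = 0.0118), and was not called with the block. Igfbp4, a binding protein of insulin-like growth factors that also inhibits Wnt receptors, fell by 3.71 ± 0.56 (adjusted p = 1.34e-04; 0.398 with the block).

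Of 24 cytoplasmic kinases, phosphatases and destruction complex genes, 4 rose (16.7%, near the background) and 2 fell (8.33%, below it). Ppp2r5a, a regulatory subunit of the phosphatase PP2A, read 18486, 15525 and 16906 in the pools, 9565 to 13371 in the adjacent glands and 2701 to 3903 in the tumors. It fell by 2.52 ± 0.18 (adjusted p = 7.02e-08) and kept the call with the block (adjusted p = 0.00201). Skp1, a subunit of a ubiquitin ligase, rose by 1.95 ± 0.28, and Ppp2r5c, another PP2A subunit, by 0.90 ± 0.20. Neither was called with the block (adjusted p = 0.282 and 0.695).

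Of 25 partners of beta-catenin and nuclear cofactors, 2 rose (8.0%) and 1 fell (4.0%), both shares below the background. Ctbp2, a corepressor, read 2481, 1197 and 1181 in the pools and 4466 to 8339 in the tumors (log2 1.92 ± 0.30, adjusted p = 1.61e-04). Sox17, a transcription factor also made by endothelial cells, read 1063 to 1618 in the pools and 171 to 513 in the tumors (log2 -1.89 ± 0.38, adjusted p = 0.00144). Tle1, a Groucho corepressor, rose by 1.04 ± 0.24. Of 18 genes of the planar polarity and calcium branches 3 rose (16.7%, near the background) and 0 fell: the kinase gene Prkca (2.11 ± 0.56), the calcineurin subunit gene Ppp3ca (1.71 ± 0.27) and Rhoa (0.68 ± 0.15). None of these 6 genes was called in this comparison with lot as a fixed block (adjusted p from 0.181 to 0.715). In tumors against adjacent gland, Ctbp2 and Sox17 were called in limma with the block (adjusted p = 0.0317 and 0.0306).

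Reported targets of Wnt signalling went both ways, 5 up and 5 down of 23 (21.7% each way). Id2, a helix-loop-helix inhibitor, read 6749, 5056 and 4210 in the pools, 11069 to 15394 in the adjacent glands and 18877 to 38653 in the tumors. The 3 groups did not overlap. Id2 rose by 2.32 ± 0.23 in tumors (adjusted p = 1.79e-06) and by 1.33 ± 0.24 in adjacent gland (adjusted p = 0.0153). Ccnd1, the cyclin D1 gene, read 3509 to 4521 in the pools and 5918 to 11331 in the tumors (1.12 ± 0.24, adjusted p = 0.00212). Set B tumors read 5194 and 4920. Also called in tumors were Cldn1 (1.62), Tiam1 (1.11) and Birc5 (1.06), higher, and Vegfa (-1.36) and Ccnd3 (-0.70), lower.

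Twist1, a mesenchymal transcription factor, read 1409 to 2332 in the pools, 883 to 1479 in the adjacent glands and did not exceed the floor in any of the 7 tumors, at least 17.1-fold lower than in wild-type gland (adjusted p = 6.12e-08). Gja1, the connexin 43 gene, fell by 2.89 ± 0.42 and Procr, an endothelial and progenitor cell receptor, by 2.11 ± 0.28. With lot as a fixed block, Id2 and Twist1 kept the call among the targets. In adjacent gland against wild-type gland, Ptk7 and Id2 were the only genes called in the 6 lists, and neither was with the block. Skeletal muscle markers, summed above, were lower in every adjacent gland than in every pool, and their part in this was not tested.

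**Figure D5:**
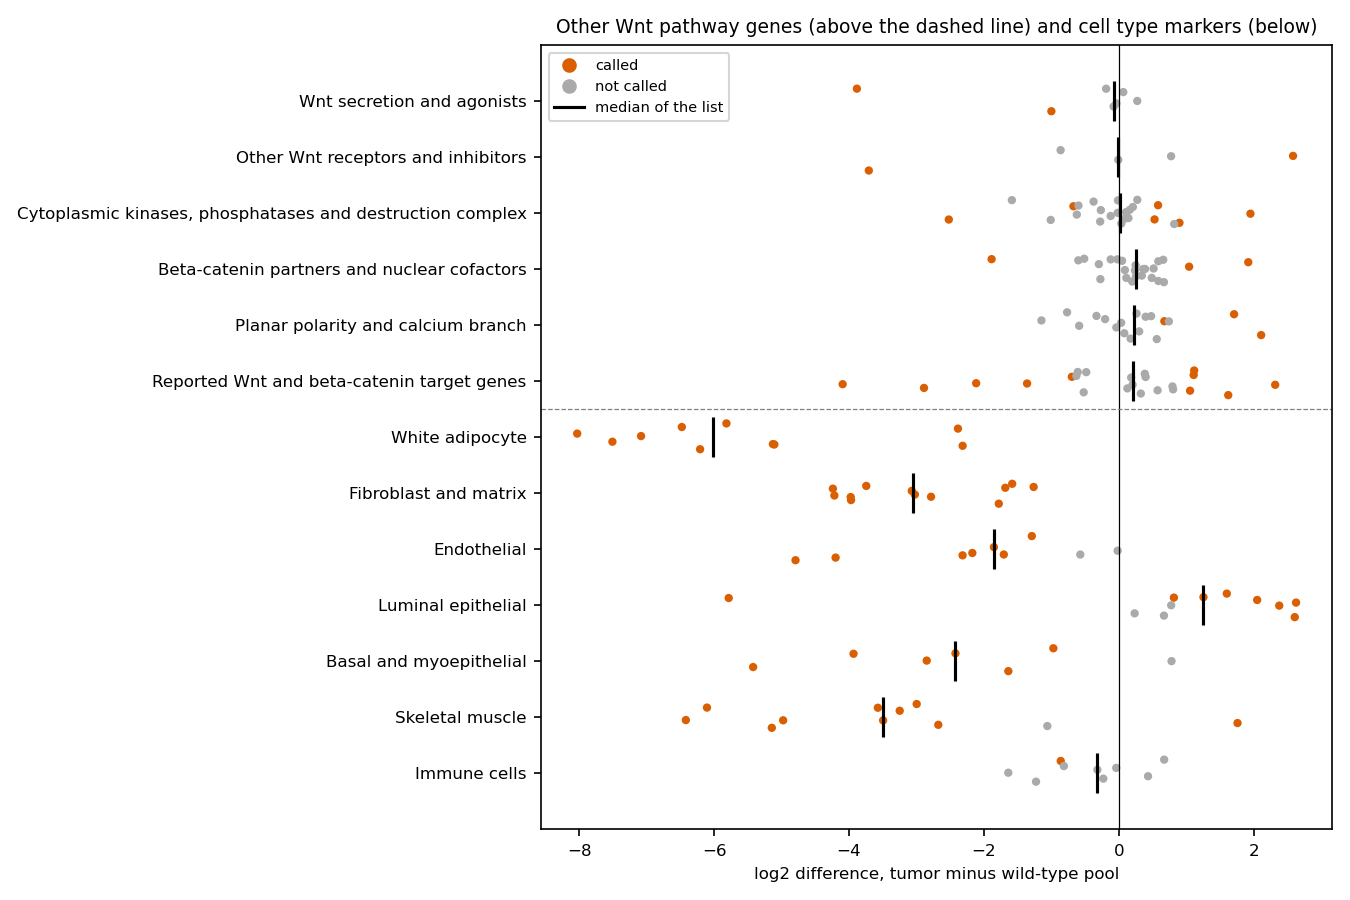
Log2 differences of single genes between tumors and wild-type pools in 6 lists of other Wnt pathway genes and 7 lists of cell type markers (orange, called; grey, not called; bar, median). Medians of the pathway lists lie between -0.08 and 0.25, and those of the adipocyte, fibroblast, endothelial, basal and muscle markers lie between -6.01 and -1.85.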

How the data were processed

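RNA of 14 mouse mammary samples was measured on 1-color oligonucleotide arrays, 1 sample per array. The authors deposited linear intensities, 1 for each of 12488 probe sets and each array; the software, background correction and normalization behind it are not given in the sources used here. Its 2%-trimmed means were 1500.67 to 1500.9 on every array, so the intensities were taken as scaled by the authors and were not normalized again. The number of arrays limits the precision.

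Values under 101 (101.42, the 20th percentile of all values) were set to it before log2; this was so for 2.32% of tested values. Folds against a group with every array at the floor, or with some there and none in the other group, are lower bounds; those of named genes carry the words at least or are said to be bounds. The 66 control probe sets were left out, and 8616 probe sets remained after removal of 3806 that exceeded the array's 40th percentile on fewer than 3 arrays. Gene names came from the platform annotation (10855 with 1 gene, 396 with several and 1237 with none; only the first were named), and symbols were updated by gene number. A gene stood for its probe set of highest mean log2, which gave 6397 genes.

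A linear model of all arrays with 4 groups was fitted in limma 3.58.1 (R 4.3.3; lmFit and trended eBayes; 10 residual and 5.75 prior degrees of freedom). Two-sided p-values were adjusted by Benjamini and Hochberg within each of 6 comparisons over all probe sets tested, and called under 0.05. Means are geometric means of floored intensities, errors are SE of the fit and intervals are 95%. The fit was tested on simulated data.

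The members and the gene lists were chosen with earlier results of these data known. Every member is accounted for by name. Members called in any comparison have values on every array. From each pathway list up to 4 called genes with the largest difference were described. Ccnd1 was described in addition, although Cldn1 and Vegfa differed by more. Other called targets were only named. Of the markers, those that are exceptions or at the floor were named, and the exceptions were chosen after their values were seen. Of the listed genes, 7 stand in more than 1 list. Alternatives covered the floor, the filter, the scaling, the intensity trend, the groups in the fit, the probe set, the lot and each array left out in turn. One more, without adjacent gland 25 and tumor 24, was chosen after seeing the data. Promoter windows come from a RefSeq table of GRCm38.p6, and figures were drawn with matplotlib 3.10.9.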

Additional observations from a re-analysis of the deposited data

Results flagged for a closer look

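Among 54 pairs of a tested gene and a group of 4 or 5 arrays, 5 had 1 array far from the others by Dixon's ratio of gap to range; chance flags about 1 in 20 such pairs. Tumor 24 stood apart for Lrp5 (143, against 829 to 1672 in the other tumors; ratio 0.715) and for Sfrp2 (1822, against 679 to 853; ratio 0.768). Tumor 26 stood apart for Wnt5b (139, against 867 to 1198; ratio 0.85). Adjacent gland 25 stood apart for Dkk3 (252, against 699 to 810; ratio 0.874), and adjacent gland 49 for Axin1 (2329, against 1604 to 1684; ratio 0.868). The first 4 of these arrays' values came from lot 2001815. Without tumor 24 and gland 25 together, 10 of 27 genes were called between tumors and wild-type gland and 1, Lrp5, between adjacent and wild-type gland.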

How the results depend on the processing

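With lot as a fixed block, 0 of 27 genes were called between tumors and wild-type gland and 1 between tumors and adjacent gland; with lots 2004097 and 2004907 taken as 1, the first count was 2. Within lot 2001815, 0 genes were called between tumors and adjacent gland, with the same differences as under the block. The block reversed Fzd3 (-0.26) and Tcf7l2 (-0.0073) in tumors against wild-type gland, with standard errors of 0.53 and 0.41. With the 2 lots taken as 1 they were 0.32 and 0.25. Pool 40, the only pool on which the blocked differences rest, was the highest pool for both genes (1270 and 1901). Other probe sets reversed Tcf7l2 there (-0.23) and Lef1 in adjacent gland (-0.054). Under the block, called genes of the pathway lists between tumors and wild-type gland were 1 for secretion and agonists, 1 for cytoplasmic genes and 2 for targets. Other receptors, nuclear cofactors, and planar polarity and calcium held 0. Between tumors and adjacent gland they were 2 for secretion and agonists, 1 for cytoplasmic genes and 4 for targets. There, nuclear cofactors held 1 higher and 1 lower, other receptors 0, and planar polarity and calcium 0. The cause was not tested. With no filter, 3 genes were called in set B against wild-type gland (40 then tested); with arrays centred on their medians, 5 in set B against adjacent gland. With the filter at the 60th percentile, 15 genes passed instead of 27. Without gland 25 and tumor 24, a choice made after seeing the data, 1 gene was called in adjacent against wild-type gland. With each array left out in turn, counts ran from 5 to 10 in tumors and 0 to 1 in adjacent gland against wild-type gland, 4 to 7 in tumors against adjacent gland, 1 to 6 and 1 to 4 in set B against wild-type and adjacent gland, and 0 to 0 in set B against the first tumors. Median centring moved the median of all probe sets from 0.07 to -0.10 in adjacent against wild-type gland and the share of calls that were higher from 61.4% to 34.9%; in set B against adjacent gland it moved them from -0.05 to 0.22 and from 40.2% to 64.3%. Lot as a random block (correlation 0.15) left 7 calls (2 higher, 5 lower) in tumors and 4 in set B against wild-type gland; Ctnnb1, Fzd3 and Tcf7l2 lost theirs in the first, Fzd9 and Wnt4 in the second. No replicate number occurs in more than 1 group, so pairs of a tumor and a gland could not be read from the numbers. Whether such pairs exist is unknown, and no paired analysis was made. A dim probe set gives no order below the floor.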
